A study of Mus musculus with 51 samples.

Results

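The 40 genes described here encode the machinery that copies DNA and drives cells through division, and they were followed in mouse alveolar macrophages, the phagocytes that live in the air spaces of the lung. They were chosen by name, as the array probe sets whose platform symbol is 1 of the 40. Of these genes, 39 were measured, out of 12393 genes on the array with an unambiguous probe set, and Ccnb1 had no probe set of its own. The 39 genes were covered by 71 probe sets, 18 genes by 1 and 21 by several, and each gene is given by its brightest probe set over the 51 arrays. By role, 9 genes license origins or form the replicative helicase, 7 synthesise DNA, 4 supply nucleotides, 5 are cyclins or Cdk1, and 14 act in chromosome compaction, the spindle and mitotic exit. The mean signal was at or above 100 arbitrary units for 36 of the 39, against 53.2% of all genes, and Tyms, Rfc3 and Ccnd1 were below it. Levels are not compared between genes, because each probe set has its own brightness.

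Macrophages were collected from C57Bl/6 mice (WT) or gp91phox-/- mice (KO), in which all cells are without the gp91 chain of the oxidase that phagocytes use to make superoxide, after Aspergillus fumigatus conidia or polystyrene beads had been put into the lungs in vivo. The question behind the design was whether macrophages of a normal host and of one prone to invasive aspergillosis answer conidia differently. WT groups of 4 arrays each were untreated at 0 h and received mock, e6 conidia or e7 conidia for 2 h or 4 h, and 2 further WT arrays came from mice given beads for 4 h. KO groups of 3 arrays each covered the same conditions without beads. The treatment text of the WT 4 h mock arrays mentions conidia and their titles say mock; the titles were followed. Arrays of a group are labelled as biological replicates, the labels used here do not give the age of the mice or their number per array, and p-values measure the spread between these arrays.

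Before a cell divides, Cdc6 and Cdt1 load the Mcm2 to Mcm7 helicase onto origins, and polymerases, the Pcna clamp and its loaders then copy the DNA. Cyclins paired with Cdk1 and other kinases drive the passage from one phase to the next, and the spindle checkpoint and the anaphase-promoting complex time the separation of chromosomes. Many genes of the replication set are known targets of E2F factors, and many mitotic genes are switched on later, in G2. Alveolar macrophages are long-lived cells that can renew themselves by division in the lung, so transcripts of this kind can be present in a resting population.

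Cybb, which encodes gp91phox, was between 10.59 and 12.12 on the log2 signal scale on WT arrays and between 6.77 and 9.06 on KO arrays, with no overlap. Markers of alveolar macrophages averaged 12.59 to 13.27 (log2) on every array. The mean of 13 neutrophil markers lay at 8.69 on WT 4 h mock replicate 3, 7.90 on WT 4 h e6 replicate 4 and 7.46 on WT 4 h e7 replicate 3, and at or below 6.85 on the other arrays. Counts that moved without these 3 arrays are given beside the results. Among the comparisons that use them, the count stayed at 1 for beads against mock and at 0 for e7 against beads, WT 4 h mock against untreated and both 4 h interactions, and KO against WT as a mean over 7 conditions had 26 called. In bulk RNA, fewer cells of a type and less RNA per cell cannot be told apart.

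The promoters of a few members show the letters through which cycling genes are commonly regulated. Windows from 250 bases before to 50 after the start were available from RefSeq (GRCm38.p6) for 34 of the 40 genes, as 36 windows out of 32851 for all genes. Only the stretch before the start was searched, on both strands. E2F-type letters (TTTCCCGC, TTTGGCGC, TTTCGCGC or TTTGCCGC) stood in 7 of 36 member windows, 19.4%, against 1.86% of all windows. The cell cycle homology region TTTGAA stood in 25.0% against 16.0%, and the CCAAT box in 66.7% against 33.8%. Among the 20 windows of licensing, synthesis and nucleotide genes, 30% had E2F-type letters and 10% had TTTGAA, whereas among the 16 windows of cyclin and mitosis genes these shares were 6.25% and 43.8%. A match describes letters and not a bound site. The 5 stretches below were chosen because Mcm6 and Mcm7 carry E2F-type letters, Ccnb2 and Cdc20 carry TTTGAA with CCAAT boxes, and Mcm2, the member with the lowest difference after e7 conidia, has TTTGAA and no E2F-type letters. Another Mcm7 window, not printed, had a CCAAT box and no E2F-type letters. All 5 genes are on the minus strand and each stretch lies upstream of the start, 5′ to 3′. Capitals mark the motifs, and in Mcm6 a pair of overlapping E2F-type matches on opposite strands forms 1 run of capitals. Mcm6 is at chr1:128359706-128359825, Mcm7 at chr5:138171895-138172058, Mcm2 at chr6:88898835-88898965, Ccnb2 at chr9:70421561-70421731 and Cdc20 at chr4:118437344-118437406.
Mcm6: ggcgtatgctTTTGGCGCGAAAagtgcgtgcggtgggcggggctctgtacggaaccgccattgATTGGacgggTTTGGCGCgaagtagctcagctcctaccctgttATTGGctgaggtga
Mcm7: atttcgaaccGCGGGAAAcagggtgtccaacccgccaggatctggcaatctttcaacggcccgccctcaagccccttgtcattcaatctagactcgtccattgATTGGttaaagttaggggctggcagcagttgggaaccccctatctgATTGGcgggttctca
Mcm2: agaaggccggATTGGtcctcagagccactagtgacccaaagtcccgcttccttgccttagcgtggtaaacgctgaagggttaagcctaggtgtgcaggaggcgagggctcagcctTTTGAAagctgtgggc
Ccnb2: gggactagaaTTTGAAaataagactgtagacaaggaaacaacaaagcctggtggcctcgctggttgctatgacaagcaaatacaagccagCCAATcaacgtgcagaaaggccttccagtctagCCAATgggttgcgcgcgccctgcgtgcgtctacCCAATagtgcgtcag
Cdc20: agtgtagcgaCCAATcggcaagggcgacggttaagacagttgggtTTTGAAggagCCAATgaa

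The median of the 39 members on an array gave the general picture. It lay between 8.08 and 9.43 on WT arrays (log2 signal, median 9.06, n = 30) and between 8.11 and 8.94 on KO arrays (median 8.62, n = 21). In WT it was 9.20 ± 0.25 (SD, n = 4) in untreated mice, 9.24 ± 0.15 after mock at 2 h and 9.12 after mock at 4 h, and its group mean was lowest after e6 conidia at 4 h, at 8.46. The WT 4 h e6 arrays read 8.19, 8.08, 8.39 and 9.18, and replicate 4, the array with high neutrophil markers, stood above the rest. Its log2 ratio of 3′ to 5′ control probe sets, a sign of RNA integrity, was also high, at 4.75 against 1.29 to 1.81 on the other e6 arrays. The WT 4 h mock arrays read 9.13, 9.33, 8.59 and 9.43, and here the array with high neutrophil markers was the low one. The part of neutrophil RNA or of RNA integrity in these values was not tested.

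**Figure D1:**
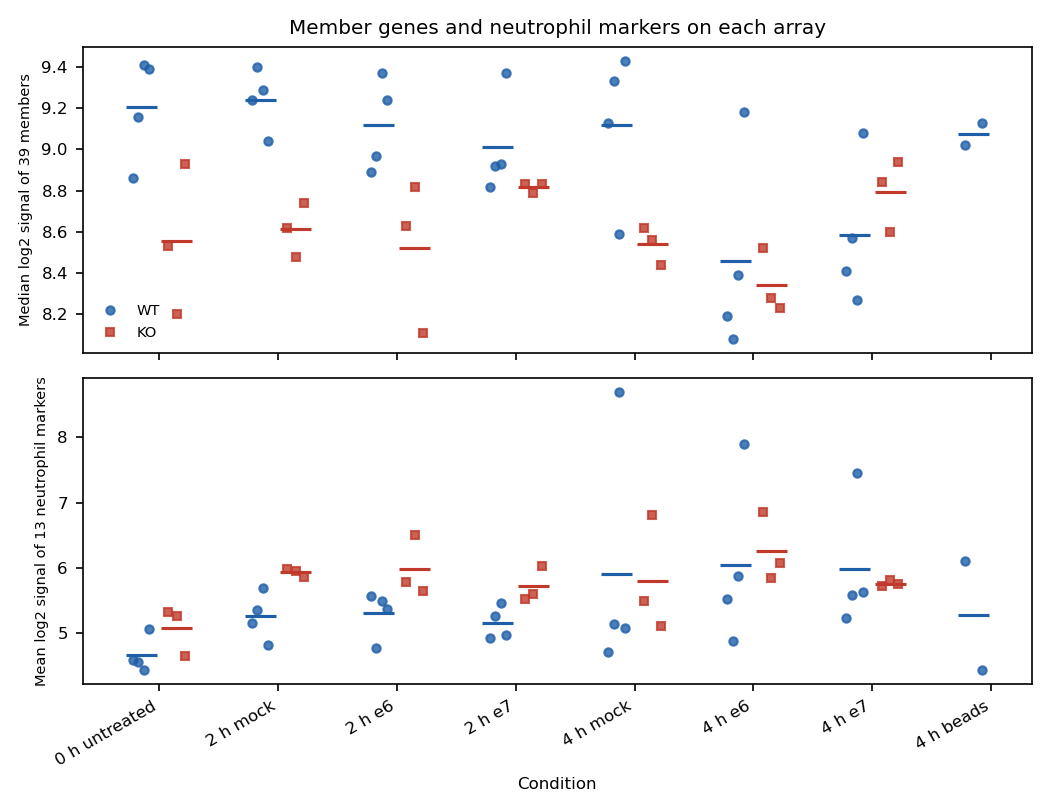
Median log2 signal of the 39 members (upper panel) and mean log2 signal of 13 neutrophil markers (lower panel) on each of 51 arrays by condition, WT as blue circles, KO as red squares, bars at group means. KO group means of the members lie below the WT means in each shared condition except 4 h e7, where they are 8.79 and 8.58.

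After e7 conidia for 4 h, WT macrophages held less mRNA of 10 members than mock-instilled WT macrophages, and none was called higher in its main probe set. A call here is a limma adjusted p under 0.05 over all probe sets. Calls went lower for 11.4% of all genes and in either direction for 17.5%. The means of 33 of 39 members lay below mock, against 55.6% of all genes, and the median difference was -0.26 (log2) for members and -0.08 for all genes. The 10 came from every role: 3 helicase subunits, 3 synthesis genes, 1 nucleotide gene, 1 cyclin and 2 mitotic genes.

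Mcm2, a subunit of the replicative helicase, had log2 signals of 9.40, 9.39, 9.24 and 10.31 on the mock arrays and of 8.41, 8.12, 7.16 and 9.08 on the e7 arrays. The groups did not overlap, mock replicate 4 stood above its group and e7 replicate 3 was the lowest array. Mcm2 fell by 1.39 ± 0.31 (SE, n = 4 each, limma adjusted p = 0.00228). Mcm3 fell by 0.95 ± 0.26 and Mcm7 by 0.74 ± 0.19. Mcm7 read 12.20, 12.43, 11.81 and 12.04 after mock and 11.76, 11.36, 10.43 and 11.95 after e7, so that e7 replicate 4 lay within the range of mock. The remaining helicase and loading genes did not pass: Mcm5 differed by -0.01, Mcm6 by -0.22, Cdc6 by -0.08, Gins1 by 0.26 and Cdt1, which loads the helicase, by -0.40 ± 0.15 (limma adjusted p = 0.0593). Another Cdt1 probe set, at a mean of 9.58 (log2), fell by 0.85 ± 0.20 (limma adjusted p = 0.00362). Mcm4 differed by 0.38 ± 0.20 in its main probe set, which is of the x_at kind whose probes may match other transcripts, and by -0.65 ± 0.22 in its other probe set (limma adjusted p = 0.0414), so its direction rests on the probe set.

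Pcna, the sliding clamp that holds polymerases on DNA, read 12.59, 12.56, 12.34 and 12.45 after mock and 11.87, 11.26, 10.27 and 12.63 after e7. Replicate 4 lay above every mock array and the other e7 arrays lay below them all. Pcna fell by 0.98 ± 0.25 (limma adjusted p = 0.00678). The clamp loader subunits Rfc3, a dim probe set, and Rfc4 fell by 0.93 ± 0.30 and 0.66 ± 0.21. Tk1, the thymidine kinase that recycles thymidine into nucleotides, read 9.13, 9.33, 8.43 and 8.93 after mock and 8.0, 8.13, 7.37 and 8.63 after e7, and fell by 0.92 ± 0.26 (limma adjusted p = 0.0139). Only e7 replicate 4 reached into the range of mock. The ribonucleotide reductase subunits Rrm1 and Rrm2 differed by -0.46 and 0.14 and did not pass.

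Ccnb2, a B-type cyclin of mitotic entry, read 9.50, 10.02, 9.10 and 9.78 after mock and 8.40, 8.26, 8.50 and 9.13 after e7, where replicate 4 just overlapped the lowest mock array. Ccnb2 fell by 1.03 ± 0.25 (limma adjusted p = 0.00452). Bub1b, the BubR1 kinase-like protein of the spindle checkpoint, read 10.06, 10.06, 9.92 and 10.27 after mock and 9.51, 9.13, 8.60 and 9.82 after e7, without overlap. It fell by 0.81 ± 0.17, with the lowest adjusted p of the members (limma adjusted p = 0.00125). Kif20a, a kinesin needed for cytokinesis, fell by 1.13 ± 0.27, and its e7 arrays, at 6.25 to 7.23, lay below all mock arrays, at 7.66 to 8.29. Birc5, the survivin subunit of the chromosomal passenger complex, differed by -1.06 ± 0.38 and just missed (limma adjusted p = 0.0512). Mki67, the common proliferation marker, differed by 0.03, Aurkb by -0.01 and Bub1 by 0.18. The called members thus stood beside mitotic genes whose means were close to those of mock.

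**Figure D2:**
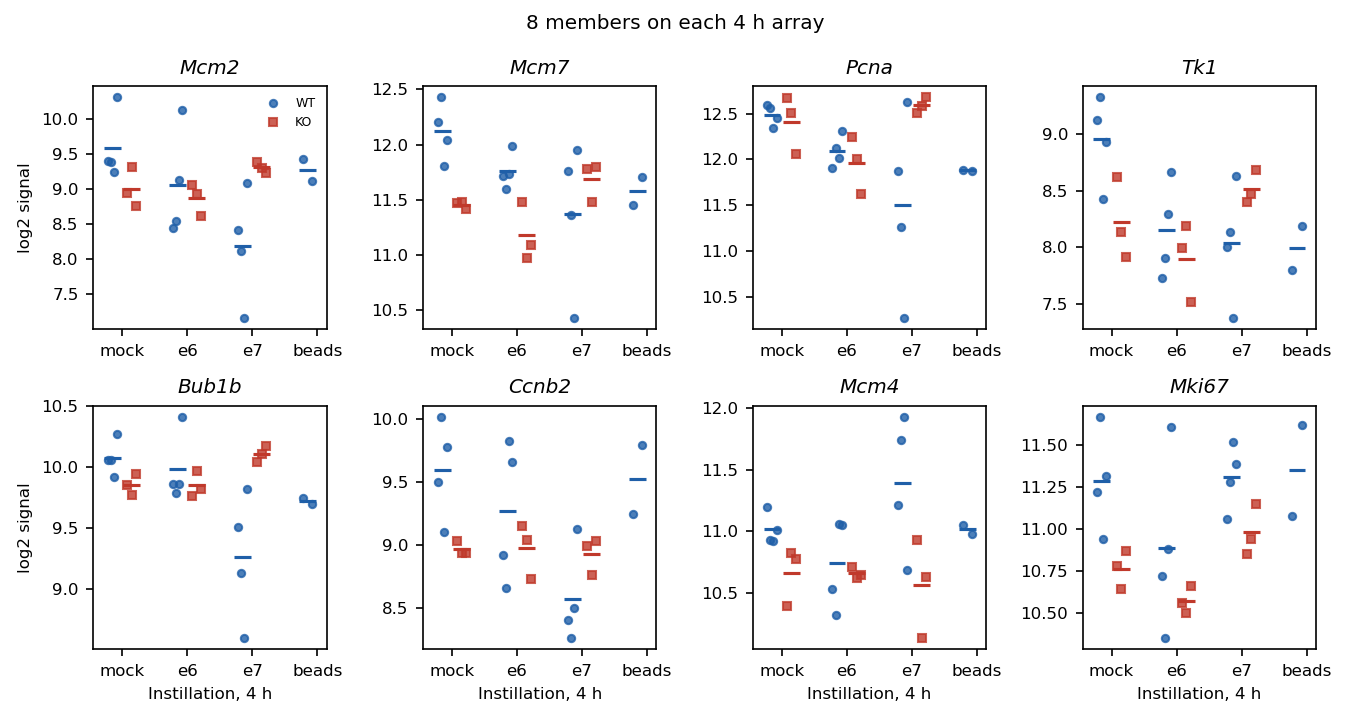
Log2 signal of 8 members on each 4 h array by instillation (mock, e6, e7 and, in WT, beads), WT as blue circles, KO as red squares, bars at group means, each panel with its own axis. In WT, e7 arrays of Mcm2 and Bub1b lie below every mock array, while those of Mki67, at 11.06 to 11.52, lie within the mock range of 10.94 to 11.67.

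The e7 arrays differed among themselves: replicate 3, which also had high neutrophil markers, was the lowest of the 4 for 23 of 39 members, and replicate 4 was the highest for each of the 10 called genes except Kif20a. Replicates 2 and 3 also had a low median over all genes, at 6.66 and 6.51 (log2) against 6.92 and 7.09 on replicates 1 and 4, and were left out together as 1 alternative because earlier results of these data named them. The 3′/5′ log2 ratio was 3.83 on replicate 3 and 1.26 to 2.34 on the other e7 arrays. With this ratio as a covariate, each of the 10 calls held. Without e7 replicate 3, 4 members were called (Bub1b, Mcm2, Kif20a and Ccnb2), and without e7 replicate 4, 16. Without the 3 arrays of high neutrophil markers 5 were called, and a fit with only the WT 4 h mock and e7 arrays, or one without e7 replicates 2 and 3, called 0. Of the 13 neutrophil markers 2 were lower and none was higher in this comparison, and 2 of 12 alveolar macrophage markers were lower. All 10 further probe sets of the called members had the same sign and 6 were called. That of Rfc4 fell by 0.92 ± 0.18, whereas that of Rfc3, at -0.02 ± 0.27, showed no difference. The main calls of Rfc3 and Rfc4 were each lost under 8 alternatives, quantile normalization among them. Rfc3 also lost its call with the mean over its probe sets. Among members not called, a very dim probe set of Tyms, at a mean of 1.59 (log2), was higher by 2.81 ± 0.87 (limma adjusted p = 0.0231).

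In KO macrophages the same exposure called no member (0.00807% of all genes were called), and 30 of 39 means lay above mock, with a median difference of 0.18 (log2) against -0.05 for all genes. One member was called without KO mock replicate 3, and 2 of 39 members had an unadjusted p under 0.05. Mcm2 read 8.95, 9.31 and 8.76 after mock and 9.39, 9.30 and 9.23 after e7 in KO, where the groups overlapped. Bub1b read 9.85, 9.77 and 9.94 after mock and 10.04, 10.11 and 10.17 after e7, with every e7 array above every mock array, and Mcm3 likewise did not overlap. The difference between the genotypes in this response was tested as an interaction. The KO response minus the WT response was above 0 for 34 of 39 members, with a median of 0.47 against 0.02 for all genes. No member passed (0.218% of all genes were called), although 16 had an unadjusted p under 0.05. Bub1b came nearest at 1.07 ± 0.26 (limma adjusted p = 0.061), and Mcm2 stood at 1.69 ± 0.48 (limma adjusted p = 0.0766). Leaving out WT e7 replicate 4 called 8 members, and leaving out WT e7 replicate 1 called 2, so this count depended on single WT arrays.

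After e6 conidia for 4 h in WT, the means of all 39 members lay below mock (52.3% of all genes did), with a median difference of -0.40 (log2) against -0.01 for all genes. None was called by limma (0.0161% of all genes were), and 13 had an unadjusted p under 0.05. Mcm5, a helicase subunit, read 8.30, 8.42, 8.01 and 8.33 after mock and 6.96, 7.24, 7.11 and 7.87 after e6, without overlap, and differed by -0.97 ± 0.27 (limma adjusted p = 0.479). Tk1 differed by -0.81 ± 0.26 and Cdc6 by -0.70 ± 0.25. With the 3 arrays of high neutrophil markers left out, 9 members were called lower (Rrm1, Mcm5, Mcm6, Tk1, Nusap1, Cdc6, Mki67, Rrm2 and Gins1) and the median was -0.73. Of these arrays, e6 replicate 4 also had the high 3′/5′ log2 ratio of 4.75, so this step does not separate neutrophil RNA from RNA integrity. Leaving out any single array of the comparison called 0. In KO, e6 at 4 h called no member (0.0807% of all genes were called), and 3 members had an unadjusted p under 0.05. The means of 31 of 39 members lay below mock (42.2% of all genes did), with a median of -0.14 against 0.06 for all genes. The difference between the genotypes in the e6 response called no member (0.0% of all genes), with 2 at an unadjusted p under 0.05.

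Both doses were compared directly at 4 h, and in WT the share of members called was below that of all genes. In WT, e7 against e6 called 5 members (18.6% of all genes were called): Mcm5 was higher by 0.96 ± 0.27, Gins1, a subunit of the GINS complex of the active helicase, by 0.78 ± 0.21, Mcm4 by 0.65 ± 0.20 and Prim1, the primase, by 0.55 ± 0.19, and Bub1b fell by 0.72 ± 0.17. Mcm5 read 6.96, 7.24, 7.11 and 7.87 after e6 and 8.75, 8.57, 7.25 and 8.44 after e7, where replicate 3 overlapped e6. The Mcm4 value is that of the probe set described above. Without the 3 arrays of high neutrophil markers 7 members were called, all higher; Bub1b then differed by -0.35 and Mcm4 by 0.57, and neither passed. Without e7 replicates 2 and 3, 1 was called, and Bub1b differed by -0.32 and Mcm4 by 0.21. The count was 9 without e6 replicate 4 and 3, 1, 2 and 12 without e7 replicates 1, 2, 3 and 4, and a fit of these 2 groups alone called 0. In KO, e7 against e6 called 2 members higher (0.871% of all genes were called). Mcm5 read 7.32, 6.94 and 7.31 after e6 and 8.43, 8.60 and 8.94 after e7, without overlap, and rose by 1.46 ± 0.31 (limma adjusted p = 0.0173). Aurka, a kinase of the spindle poles, read 6.43, 7.17 and 6.96 after e6 and 7.90, 7.70 and 8.17 after e7 and rose by 1.07 ± 0.24 (limma adjusted p = 0.0241). The count was 1 without KO e6 replicate 1 or 2 and 0 without KO e7 replicate 2 or 3.

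At 2 h, 1 member was called in each genotype, both after e7. In KO this was a smaller share than that of all genes. In WT, e6 conidia called no member (0.0% of all genes), with 2 at an unadjusted p under 0.05, and e7 called 1 (1.76% of all genes were called). That member was Mcm5, with 8.15, 8.57, 8.49 and 8.47 after mock and 7.37, 7.51, 7.09 and 7.67 after e7, without overlap. It fell by 1.01 ± 0.27 (limma adjusted p = 0.0438), and the call was lost when any 1 of the 8 arrays was left out. The log2 ratio of 3′ to 5′ probe sets of Gapdh and beta-actin, a sign of RNA integrity, averaged 1.31 on these mock arrays and 3.22 on these e7 arrays (difference 1.91, two-sided exact permutation p = 0.0286, 0.114 after Benjamini-Hochberg adjustment over 4 such tests), and the call was lost with this ratio as a covariate. The median of all members was -0.23 (log2) against -0.02 for all genes. In KO, e6 called no member (0.0% of all genes), with 1 at an unadjusted p under 0.05, and e7 called Kif11 (8.54% of all genes were called). Kif11, the motor that pushes spindle poles apart, read 6.54, 6.68 and 6.89 after mock and 7.88, 7.66 and 7.72 after e7 and rose by 1.05 ± 0.32 (limma adjusted p = 0.0363). This call was lost without any 1 of the 6 arrays and under quantile normalization, which moved the median of all probe sets here from 0.26 to 0.01. The genotype difference in the 2 h e7 response called no member (1.35% of all genes were called), with 2 at an unadjusted p under 0.05 and a lowest limma adjusted p of 0.177.

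**Figure D3:**
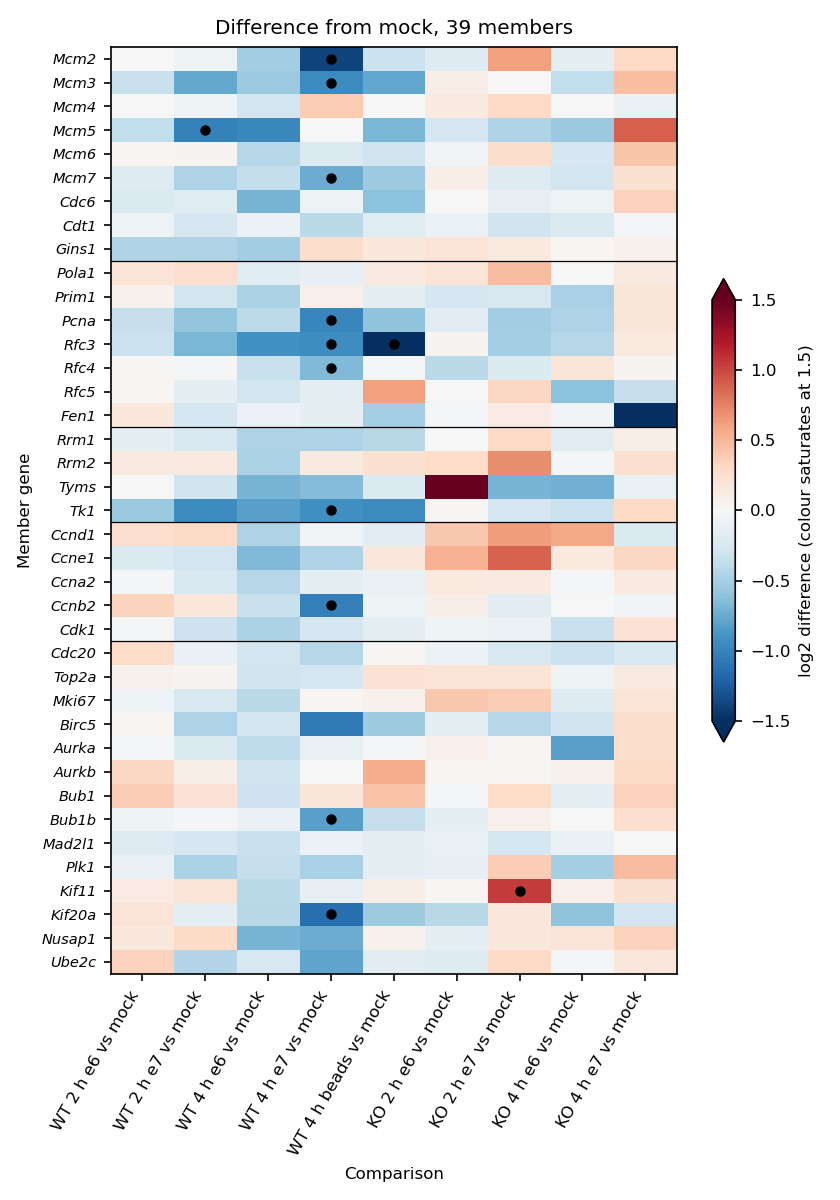
Log2 difference of group means from mock for 39 members in 9 comparisons, blue below and red above mock, grouped by role between the lines; a dot marks a limma adjusted p under 0.05 and colours saturate at 1.5. The WT 4 h e6 column is below mock throughout, and 10 of the 13 dots stand in the WT 4 h e7 column.

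Beads at 4 h, with 2 arrays, called 1 member against mock (1.17% of all genes were called). The means of 27 of 39 members lay below mock, against 38.4% of all genes. The median difference was -0.14 (log2) for members and 0.16 for all genes. Rfc3, a dim probe set, read 5.19 and 5.62 with beads against 6.89, 7.32, 6.76 and 6.61 with mock and fell by 1.49 ± 0.36 (limma adjusted p = 0.0345). The call was lost without beads replicate 1 or mock replicate 1, 2 or 3, in a fit of only the compared groups, with the mean over its probe sets and with the 3′/5′ ratio as a covariate. That log2 ratio was 4.11 and 5.32 on the bead arrays and 1.19 to 2.34 on the mock arrays. Conidia at e7 against beads called no member (3.98% of all genes were called), with 6 at an unadjusted p under 0.05, and 5 were called without e7 replicate 4. The means of 28 of 39 members lay below beads, against 67.4% of all genes. The median was -0.22 (log2) for members and -0.26 for all genes, so the members did not fall below beads by more than genes in general. Mock instillation itself called no member against untreated mice. The share of all genes called was 0.0% in WT at 2 h, 0.00807% in WT at 4 h, 0.00807% in KO at 2 h and 1.04% in KO at 4 h, and the members with an unadjusted p under 0.05 numbered 0, 0, 3 and 4. Without KO 4 h mock replicate 3, 1 member was called at 4 h in KO.

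KO macrophages held less mRNA of most members than WT macrophages over the conditions that both genotypes had. As a mean over 7 conditions, 22 members were called (35.0% of all genes were), 21 lower in KO (13.6% of all genes) and 1 higher (21.4% of all genes). The means of 33 of 39 members lay below WT, and the median difference was -0.25 (log2) for members and 0.09 for all genes. Folds of the called members ran from 1.17 to 2.02. Quantile normalization moved the median of all probe sets from 0.11 to -0.03 and left the members' median at -0.25.

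All 9 licensing and helicase genes had a mean below WT in KO, and 5 were called. Cdt1 read 11.00 to 11.87 on WT arrays (median 11.41, n = 30 with the bead arrays) and 10.53 to 11.44 on KO arrays (median 10.86, n = 21), ranges that overlapped. It fell by 0.55 ± 0.06, the lowest adjusted p of the members (limma adjusted p = 4.31e-09). Mcm6 had a median of 10.35 on WT and 9.87 on KO arrays and fell by 0.49 ± 0.11, and in untreated mice it read 10.58, 10.45, 10.72 and 10.72 in WT against 9.97, 9.57 and 9.97 in KO, without overlap. Cdc6, which works with Cdt1, fell by 0.52 ± 0.10, Mcm7 by 0.40 ± 0.08 and Mcm4 by 0.40 ± 0.08; the other Mcm4 probe set gave -0.42 ± 0.09. Mcm2, Mcm3, Mcm5 and Gins1 did not pass, at -0.25, -0.25, -0.06 and -0.19. The other Mcm2 probe set, at a mean of 9.04 (log2), fell by 0.44 ± 0.12 (limma adjusted p = 0.00346).

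Of the synthesis genes, Pola1, the catalytic subunit of the polymerase that starts new strands, fell by 0.32 ± 0.07, Prim1 by 0.25 ± 0.08 and Rfc5 by 0.23 ± 0.08. Rfc4 and Rfc3 did not pass in their main probe sets, at -0.03 and 0.05. Another Rfc4 probe set fell by 0.52 ± 0.07 (limma adjusted p = 7.11e-07), and a dim one of Rfc3 was higher by 0.32 ± 0.11 (limma adjusted p = 0.0275). Fen1, the nuclease that trims Okazaki fragments, was the only member called higher in its main probe set, by 0.53 ± 0.15 (limma adjusted p = 0.00505). Its main probe set, of the x_at kind, read 13.42, 12.90 and 11.27 on KO 4 h e6 and 12.64, 13.58 and 11.48 on KO 4 h mock arrays and at most 12.00 on any other array, and its other probe set differed by 0.01 ± 0.13. Of the nucleotide genes Rrm2, the regulated subunit of ribonucleotide reductase, fell by 0.40 ± 0.10, Tk1 by 0.30 ± 0.11 and Tyms, thymidylate synthase, by 1.01 ± 0.25. Tyms had the dimmest probe set, at a mean of 4.02, and was not called when signals under 50 were set to 50.

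Ccna2, the S and G2 phase cyclin, fell by 0.26 ± 0.07 and Ccnb2 by 0.40 ± 0.10, whereas Ccnd1, Ccne1 and Cdk1 did not pass, at 0.28, -0.06 and -0.12. Of 14 mitotic genes 8 were called lower. Top2a, the topoisomerase that untangles chromosomes, had a median of 10.13 on WT and 9.71 on KO arrays and fell by 0.46 ± 0.08 (limma adjusted p = 2.05e-05). Mki67 fell by 0.32 ± 0.07, from a median of 11.31 to 10.94. After mock at 4 h it read 11.22, 11.67, 10.94 and 11.32 in WT and 10.78, 10.64 and 10.87 in KO, without overlap, and in untreated mice 11.16, 11.22, 11.27 and 11.61 against 11.16, 11.19 and 11.60, almost superposed. The kinesin Kif11 fell by 0.46 ± 0.11, Nusap1, a spindle protein, by 0.43 ± 0.11, Aurkb by 0.41 ± 0.11, the checkpoint kinase Bub1 by 0.40 ± 0.09, Cdc20, the activator of the anaphase-promoting complex, by 0.27 ± 0.10 and Aurka by 0.23 ± 0.09. The main Cdc20 probe set is of the x_at kind. Another Cdc20 probe set, at a mean of 8.67 (log2), differed by -0.05 ± 0.10 and did not pass (limma adjusted p = 0.718). The checkpoint genes Bub1b and Mad2l1 differed by 0.13 and -0.09 and did not pass, nor did Birc5, Plk1, Kif20a and Ube2c.

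**Figure D4:**
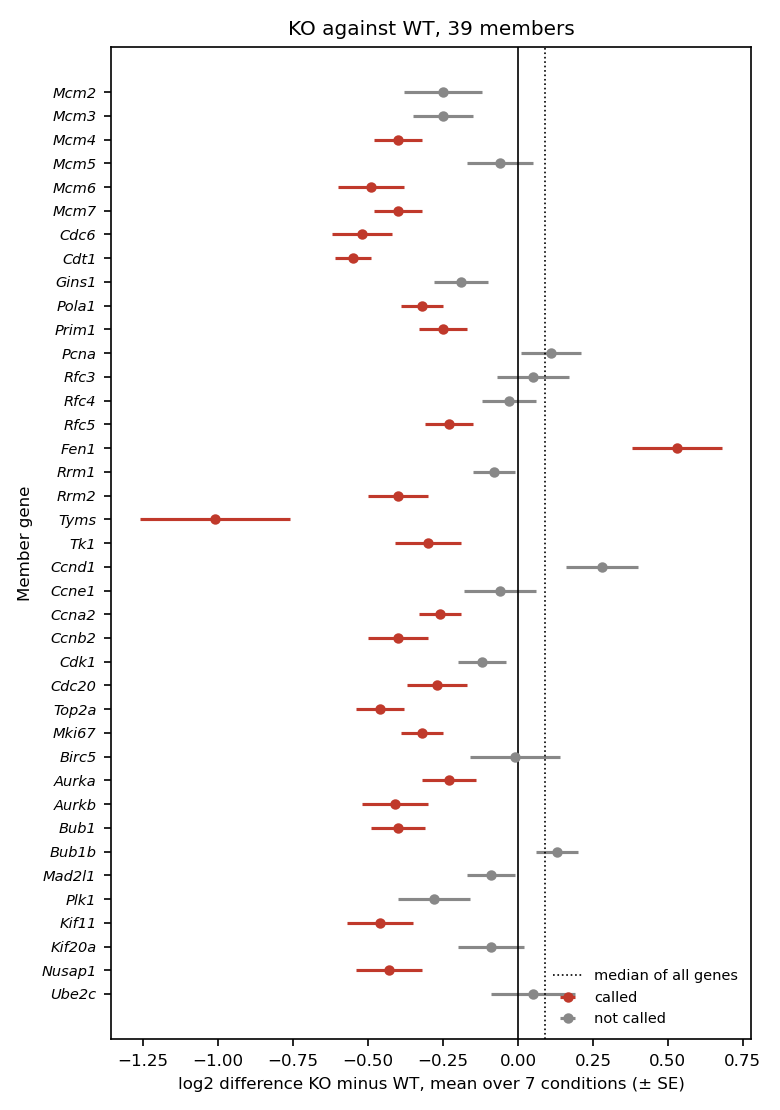
Log2 difference KO minus WT as a mean over 7 conditions (points) with its standard error (bars) for 39 members, red where the limma adjusted p is under 0.05, with the median of all genes as a dotted line. Most points lie left of 0, and Fen1 at 0.53 is the called exception.

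The 21 lower members were below WT in most conditions: 11 in all 7 and 20 in at least 6. They were called on the mean of these same 7 conditions, so these counts are not independent of the call. The number of members with a KO mean below WT was 29 of 39 untreated, 34 after mock at 2 h, 33 after e6 at 2 h, 25 after e7 at 2 h, 37 after mock at 4 h, 30 after e6 at 4 h and 21 after e7 at 4 h. Of all genes, 55.7%, 55.8%, 50.8%, 38.5%, 41.9%, 37.9% and 38.0% lay below WT in the same conditions. The median difference was -0.51 (log2) for members and 0.09 for all genes after mock at 4 h, and -0.04 and 0.20 after e7 at 4 h. In untreated mice alone no member passed (2.39% of all genes were called), with 6 at an unadjusted p under 0.05 and a median of -0.23 against -0.06 for all genes; without KO untreated replicate 3, 2 were called. Leaving out each of 49 arrays in turn called 20 to 25 members in the mean over conditions. Tk1 lost its call without KO 2 h e6 replicate 3 or KO 4 h e6 replicate 3, and Aurka, Rfc5 and Cdc20 lost theirs without any of 15, 6 and 4 single arrays. Of 22 further probe sets of the called members 16 had the same direction, as did all 14 with a mean signal of at least 100. Only the sign is counted here: 7 were called in the same direction, and those of Fen1 at 0.01 and Cdc20 at -0.05 count as agreeing. In the opposite direction 3 were called, those of Cdt1, Nusap1 and Top2a at log2 means of 1.62, 4.31 and 1.38.

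Markers of other cell types also differed between the genotypes. Of 10 T and NK cell markers 7 were higher and 1 lower in KO, with a median difference of 1.25 (log2). Their mean per array ran from 2.79 to 4.60 in WT and from 3.16 to 5.53 in KO. Of 8 monocyte and dendritic cell markers 4 were higher, with a median of 0.89, and their array means ran from 3.55 to 6.13 in WT and from 4.48 to 6.76 in KO. Cd3d and Cd3e, chains of the T cell receptor complex, had medians over arrays of 1.26 and 3.14 (log2) in WT and 2.16 and 3.99 in KO. The medians of Cd4 and Klrd1 differed by more, at 2.34 and 4.75 in WT and 5.18 and 6.24 in KO. Lat and Il2rb were the only markers of this list with a lower median in KO, at 5.63 against 6.15 and 3.38 against 3.7. The Cd3d and Cd3e medians and all array means of the T and NK markers lie under a signal of 50, while the KO median of Klrd1 lies above it. Some dim probe sets of members differed by similar amounts, in either direction, and others by little. That of Top2a at a mean of 1.38 was higher in KO by 1.43 ± 0.24, and that of Tyms at 4.02 was lower by 1.01 ± 0.25. Those of Bub1 at 5.27 and Mcm3 at 5.88 differed by 0.12 ± 0.22 and -0.02 ± 0.12. Of 12 alveolar macrophage markers 4 were higher and 1 lower, and of 13 neutrophil markers 1 was higher and 1 lower. Of 6 endothelium and stroma markers 3 were higher (median 0.32), and of 5 B cell markers 1 was (median 0.67). Of 9 lung epithelium markers 1 was higher and 1 lower, and neither of the erythroid markers measured was called. The 3′/5′ log2 ratio averaged 2.39 on WT and 1.80 on KO arrays. The part of these cells in the members' difference was not tested. With the 3′/5′ ratio as a covariate 21 members were called, 19 lower. Aurka, Cdc20 and Rfc5 lost their calls in that fit, so the called members were not all the same.

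A wider list of 80 other replication and cell cycle genes, 74 of them measured, was read in the same comparisons. Over the 7 conditions 36 were lower and 4 higher in KO, against the 13.6% and 21.4% of all genes given above, with a median of -0.22 (log2) against 0.09. The falls with the greatest size were E2f8, an E2F repressor, by 0.71 ± 0.13, Anln, the anillin of the cleavage furrow, by 0.70 ± 0.07, Brca1, a DNA repair protein, by 0.58 ± 0.11, Plk4, which duplicates centrioles, by 0.55 ± 0.07, Dut, a dUTPase, by 0.53 ± 0.10 and Pole, the leading strand polymerase, by 0.53 ± 0.11. The 4 higher genes were the Cdk inhibitors Cdkn1c (1.14 ± 0.34) and Cdkn2d (0.41 ± 0.10) and the retinoblastoma gene Rb1 (0.32 ± 0.06), with the cyclin Ccnd2 at 0.20 ± 0.06. After e7 at 4 h in WT, 15 of 74 were lower, against 11.4% of all genes, and 2 were higher: the polymerase delta subunit Pold2 fell by 1.30 ± 0.31, the condensin subunit Ncapd2 by 1.16 ± 0.38, the origin recognition subunit Orc6 by 0.95 ± 0.18 and Rpa3, of the single-strand binding complex, by 0.90 ± 0.16, whereas the transcription factor E2f1 rose by 0.73 ± 0.22 and Dut by 0.68 ± 0.24. In KO at 2 h, e7 raised 5 of 74 and lowered none, where 8.54% of all genes were called and the median of all genes was up by 0.23, so this share is no more than the background. Among the 5 were Kif23, a kinesin of cytokinesis, higher by 1.06 ± 0.19 and Pold1, the catalytic subunit of polymerase delta, by 1.01 ± 0.24.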

How the data were processed

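Total RNA of alveolar macrophages was labelled with biotin by the Affymetrix protocol and hybridised to mouse expression arrays, per the labels' protocols. The authors deposited 1 signal intensity per probe set and array on a linear scale. The submitters' processing notes name GCOS and RMA without a role. The mean of each array after trimming 2% at each end was 500.2, as scaling to a common target gives. The genome build behind the probe sets is not given in the sources used here.

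Of 22690 probe sets, 64 controls were left out and 22626 tested. Exactly 1 symbol was held by 20380, several by 691 and none by 1555, which gave 12393 genes, and the brightest probe set on average stood for its gene. Log2 intensities of all 51 arrays went into 1 linear model with a mean for each of 15 groups (limma 3.58.1, R 4.3.3). P-values are two-sided, with Benjamini-Hochberg adjustment across the tested probe sets in each of 21 comparisons. An error after ± is limma's standard error of the difference unless called SD, and it uses a spread pooled over all groups. Shares of all genes are over the 12393 genes. The fit was tested on simulated data. The number of arrays limits the precision.

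The members and lists were chosen with earlier results of these data known. Any member may be named. Of the wider list, the called genes are named, at most 6 rises and 6 falls by size in a comparison. Alternatives were quantile normalization, signals under 50 set to 50, probe sets with mean signal under 100 left out, only the compared groups in the fit, the 3′/5′ ratio as a covariate, the replicate number as a block, the mean over a gene's probe sets, and arrays left out. Leaving out the 3 arrays with high neutrophil markers, and single arrays for the mean over 7 conditions, was chosen after seeing the data. Replicate numbers did not pair the arrays: deviations of arrays with the same number correlated between -0.0699 and 0.0809 over 56 pairs of arrays. No promoter was read from a genome, and the windows came from the RefSeq table of GRCm38.p6.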

Additional observations from a re-analysis of the deposited data

Results flagged for a closer look

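Of 55 sets of 4 WT arrays examined for 1 array far from the others, 4 held one, where chance gives about 1 in 20. The 3′/5′ control ratio (log2) was 0.93 on WT 2 h mock replicate 4, below the 1.41 to 1.47 of the other arrays of that group, and 4.75 on WT 4 h e6 replicate 4, above the 1.29 to 1.81 of its group. The neutrophil marker mean was 8.69 on WT 4 h mock replicate 3, whose group otherwise ran from 4.72 to 5.15. Mcm2 was 10.31 on WT 4 h mock replicate 4, against 9.24 to 9.40 on the other arrays.

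By the interaction term of limma, the response to e7 at 2 h differed between the genotypes for 2 of the 74 genes measured in the wider list. Of all genes, 1.35% were called. The median of this difference was 0.20 (log2) for all genes and 0.26 for the list. Quantile normalization moved the median of all probe sets from 0.25 to -0.01. Pold1 responded by 1.42 ± 0.32 more in KO (adjusted p = 0.0156): it rose from 8.35 ± 0.04 to 9.36 ± 0.11 (SD, n = 3) in KO, by limma at an adjusted p of 0.00917, and went from 9.30 ± 0.20 to 8.88 ± 0.20 (SD, n = 4) in WT, by limma at an adjusted p of 0.321. Kif23 responded by 1.11 ± 0.26 more (limma adjusted p = 0.0189), with means of 9.21 after mock and 10.27 after e7 in KO, and ranges of 9.78 to 10.30 and 9.65 to 10.34 in WT. For both genes every KO e7 array lay above every KO mock array. After mock, the KO means lay below the WT means, at 8.35 against 9.30 for Pold1 and 9.21 against 10.04 for Kif23.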

How the results depend on the processing

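Of 368 recomputed counts of called members, 299 stayed within 1.5 times the reported count. Counts that moved follow; the cause was not tested. With quantile normalization the count was 2 for WT 2 h e7, 0 for KO 2 h e7, 1 for KO 4 h e6 and 4 for KO 4 h e7 against e6. With signals under 50 set to 50 it was 2 for WT 2 h e7, beads and e7 against beads, 1 for KO 4 h e6 and the 4 h e7 interaction, and 4 for KO e7 against e6. Without dim probe sets, where fewer are tested, it was 3 for WT 2 h e7 and e7 against beads, 0 for beads, 6 for the 4 h e7 interaction and 11 for WT e7 against e6. With the 3′/5′ covariate it was 0 for WT 2 h e7, KO 2 h e7 and beads, 1 for e7 against beads and KO e7 against e6, and 8 for WT e7 against e6. With only the compared groups it was 0 for WT 2 h e7, WT 4 h e7, beads and both dose comparisons. With the replicate block it was 2 for WT 2 h e7, 4 for e7 against beads, 1 for the 4 h e7 interaction and 20 for KO against WT. With the mean over probe sets it was 0 for beads and 1 for untreated KO against WT, and Nusap1, Cdt1 and Top2a turned to 0.32, 0.16 and 0.48. Without the 3 arrays of high neutrophil markers it was 9 for WT 4 h e6 and 5 for WT 4 h e7. Without e7 replicates 2 and 3 it was 0 for WT 4 h e7 and 1 for e7 against e6. Leaving out single arrays gave 0 to 1 for WT 2 h e7, 4 to 16 for WT 4 h e7, 0 for KO 2 h e7, 0 to 1 for KO 4 h e7, for beads and for KO 4 h mock, 0 to 5 for e7 against beads, 20 to 25 for KO against WT, 0 to 2 for it in untreated mice, 0 to 8 for the 4 h e7 interaction, 1 to 12 for WT e7 against e6 and 0 to 3 for KO e7 against e6. KO against WT ran from 17 to 26 under the settings other than single arrays left out. Groups of 2 to 4 arrays limit what small differences can be called.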

Other observations

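In untreated mice 3 of the 74 measured genes of the wider list were lower in KO by limma (2.39% of all genes were called), the cyclin Ccnd3 by 1.36 ± 0.31 (adjusted p = 0.0129), Rpa2, of the single-strand binding complex, by 0.77 ± 0.20 (adjusted p = 0.0333) and Ezh2, a histone methyltransferase, by 0.54 ± 0.15 (adjusted p = 0.0455). E2f8 fell by 1.46 ± 0.38 after mock at 4 h against untreated KO mice (limma adjusted p = 0.0395). Tipin, which stabilises replication forks, fell by 0.94 ± 0.19 after e7 at 2 h in WT (limma adjusted p = 0.00761) and by 0.92 ± 0.19 at 4 h (limma adjusted p = 0.0011), comparisons with separate mock arrays.

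Within WT at 4 h, e7 against e6 raised 9 of the 74 genes and lowered 6, where 18.6% of all genes were called, a share close to that of the list. The higher ones included Dut by 1.15 ± 0.24, Hmgb2, a chromatin protein, by 1.0 ± 0.25, E2f1 by 0.96 ± 0.22 and Brca1 by 0.96 ± 0.27, and the lower ones Pold2 by -0.97 ± 0.31, Pold1 by -0.88 ± 0.21, Orc6 by -0.78 ± 0.18 and Rpa3 by -0.72 ± 0.16. For e7 against beads, 3.98% of all genes were called, a share close to that of the list. The median there was -0.26 (log2) for all genes and -0.23 for the list. The 3 called of the 74 genes were lower after e7: Rpa3 by 0.93 ± 0.20, Orc6 by 0.79 ± 0.22 and Anln by 0.74 ± 0.20. These genes were not refitted under the alternative settings.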
